A study of Mus musculus with 3 samples.

Results

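Interleukin 10 and the shared receptor of interleukins 4 and 13 are described here through 9 genes of the 19070 that the probe panel measured in mouse skin wounds. The ligands are Il10, Il4 and Il13, the receptor chains are Il10ra, Il10rb, Il4ra and Il13ra1, and the targets are Retnla and Chil3. The genes were picked by symbol, and their unique molecular identifiers (UMIs, each standing for 1 captured molecule) were summed by cell class and library; all 9 had UMIs. All mice were C57BL/6J females, wounded at postnatal day 50, and every wound was a splinted full-thickness wound of 5 mm on the back, taken 5 days after wounding. One group had no treatment, a second received 20 µL of GelMA (gelatin methacryloyl, a hydrogel set under ultraviolet light for 1 min), and the third received the same gel carrying apoptotic neutrophils (AN-GelMA). Each group is 1 library, and how many mice it holds was not stated, so animal, piece of skin and treatment cannot be told apart and no test between groups was possible. The files of the AN-GelMA library carry the word heat, which the sources used here do not explain.

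Interleukin 10 is a cytokine that restrains inflammation. It binds a receptor of a ligand-binding chain, IL-10Rα, made mostly by blood cells, and a widely made chain, IL-10Rβ, and signals through JAK1, TYK2 and STAT3. Interleukins 4 and 13 are the cytokines of type 2 immunity, made by T helper cells, innate lymphoid cells, mast cells and basophils. Both signal through IL-4Rα and STAT6. For interleukin 4 the partner is the common γ chain in blood cells, or IL-13Rα1 in other cells and in some myeloid cells. For interleukin 13 the partner is IL-13Rα1. In macrophages, STAT6 induces Retnla, which encodes the secreted protein RELMα, and Chil3, which encodes the chitinase-like protein Ym1; in skin, RELMα is known for a part in collagen crosslinking during repair.

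The upstream sequences of the target genes are shown because both were searched for the palindromes that STAT dimers bind. RefSeq promoter windows, from 250 bases before to 50 bases after the start on GRCm38.p6, were at hand for 6 of the 9 genes, in 7 windows. The STAT6-type letters TTCNNNNGAA occurred in 6.95% of all 32851 windows, and the STAT3-type letters TTCNNNGAA in 8.3%; both motifs read the same on either strand. Retnla (chr16:48842359-48842608, plus strand) held 1 STAT6-type match, 145 to 136 bases before the start. Chil3 (chr3:106167565-106167814, minus strand) held 1 STAT3-type match, 172 to 164 bases before it, and no STAT6-type match. The 250 bases before each start are given from 5′ to 3′, with the match in capitals.
Retnla: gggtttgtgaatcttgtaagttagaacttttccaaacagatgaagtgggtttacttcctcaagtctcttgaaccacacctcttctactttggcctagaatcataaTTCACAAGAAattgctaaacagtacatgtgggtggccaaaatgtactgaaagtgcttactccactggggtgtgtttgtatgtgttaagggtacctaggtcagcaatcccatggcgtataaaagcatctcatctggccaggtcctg
Chil3: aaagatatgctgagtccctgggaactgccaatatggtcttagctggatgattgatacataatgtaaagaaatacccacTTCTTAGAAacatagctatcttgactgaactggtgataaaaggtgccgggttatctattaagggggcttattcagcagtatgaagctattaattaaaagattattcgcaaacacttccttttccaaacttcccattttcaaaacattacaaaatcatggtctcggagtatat
Of the other windows, those of Il4 held a match of each kind and those of Il13, Il13ra1 and Il4ra held none; a match describes the letters only.

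Cell barcodes numbered 6073 in the untreated, 11449 in the GelMA and 9648 in the AN-GelMA library, with 8945496, 21613482 and 14156692 UMIs, and 25502 cells were kept. Clusters were named from marker lists, so each class name below means cells like that type. Macrophages numbered 645, 375 and 1498, fibroblasts 1080, 670 and 2035, keratinocytes 2267, 4448 and 3848, and lymphocytes 84, 103 and 140; no cluster of mast cells was found, and at most 5 cells held 3 or more UMIs of any 1 of 8 mast cell or basophil genes. Between 94 and 135 barcodes occurred in both libraries of a pair. Hair-forming genes were high throughout the GelMA library: 9 of them summed to 875 CPM (UMIs scaled to 1000000 in each class and library) in its macrophages, against 125 in the untreated and 18.7 in the AN-GelMA library. There were also 284 cells (170, 7 and 107) in 2 clusters led by genes foreign to skin, Duxf3, Vmn1r91 and Spin2g. In these flat-profile cells, 1319 genes of odorant and vomeronasal (nose) receptors took 6.66% of the UMIs, against 0.041% in macrophages and 0.092% in lymphocytes. UMIs of rarely counted genes in such cells are therefore given apart.

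Most Il10 UMIs lay in macrophages, the most numerous class of white blood cells. Of its 155 UMIs in kept cells, 102 (65.8%, exact binomial 95% interval 57.8 to 73.2%) lay in macrophages, 23 in flat-profile cells, 12 in keratinocytes, 9 in fibroblasts and 3 in lymphocytes. A UMI was seen in 3.88% of untreated, 4.0% of GelMA and 2.6% of AN-GelMA macrophages, whose median depths were 986, 736 and 876 UMIs. In keratinocytes, which are not known as a main source, the shares were 0.22%, 0.045% and 0.10% at median depths of 1360, 1646 and 1417 UMIs. With every cell thinned to 800 UMIs, which left out 102, 218 and 543 macrophages, the macrophage shares were 2.95%, 3.18% and 2.62%. No Il10 UMI was found in 294 Langerhans cells or in 1173 blood endothelial cells. For the latter the level of 3 UMIs, the fixed limit given for a count of 0, is 2.47 CPM. The 3 lymphocyte UMIs of Il10 came from 2 cells, 1 untreated and 1 GelMA, both in a cluster of 31 cells led by Ctla4 and Foxp3, genes of regulatory T cells. These few UMIs do not rank that cluster against macrophages. Over the libraries 3.14% of 2518 macrophages and 0.61% of 327 lymphocytes held a UMI. Of the untreated neutrophils 3 of 33 (9.09%) did, on 3 UMIs, of which 2 lay in cells with a nose receptor UMI. Neutrophils of the other libraries held none.

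Il13 had 44 UMIs in kept cells, of which 25 lay in flat-profile cells and 13 in lymphocytes. The lymphocyte UMIs were 10 in the untreated, 1 in the GelMA and 2 in the AN-GelMA library, or 151, 10.2 and 18.8 CPM with Poisson 95% intervals of 72.6 to 279, 0.26 to 56.7 and 2.28 to 68.1. The untreated interval lies above both others, but the UMIs come from 5, 1 and 2 cells with up to 3 in a cell, so they describe few cells of these libraries. None of these 8 cells held a UMI of a nose receptor gene, although 28 of the 84 untreated lymphocytes did. By cluster, 8 of the 13 UMIs fell in a cluster of 135 cells led by Ctsw, Itgae and Adgrg5, 3 in the cluster led by T cell genes with Trdc and Trgv5, which mark γδ T cells, and 1 in each of the others.

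Il4 was close to the detection limit in every class. It had 33 UMIs, with 17 in flat-profile cells, 10 in macrophages (1, 3 and 6 by library) and 1 in lymphocytes. Macrophages then stood at 1.35, 9.05 and 3.87 CPM, and 3 UMIs are worth 4.04, 9.05 and 1.94 CPM in these libraries. Leaving out every cell with a nose receptor UMI raised the macrophage share of Il10 to 76.8% and the lymphocyte share of Il13 from 29.5% to 81.2%. All flat-profile cells with a UMI of Il10 (16 cells) or Il13 (21 cells) held such a UMI. The step thus removed them by construction, and the rise says nothing further about the source.

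**Figure D1:**
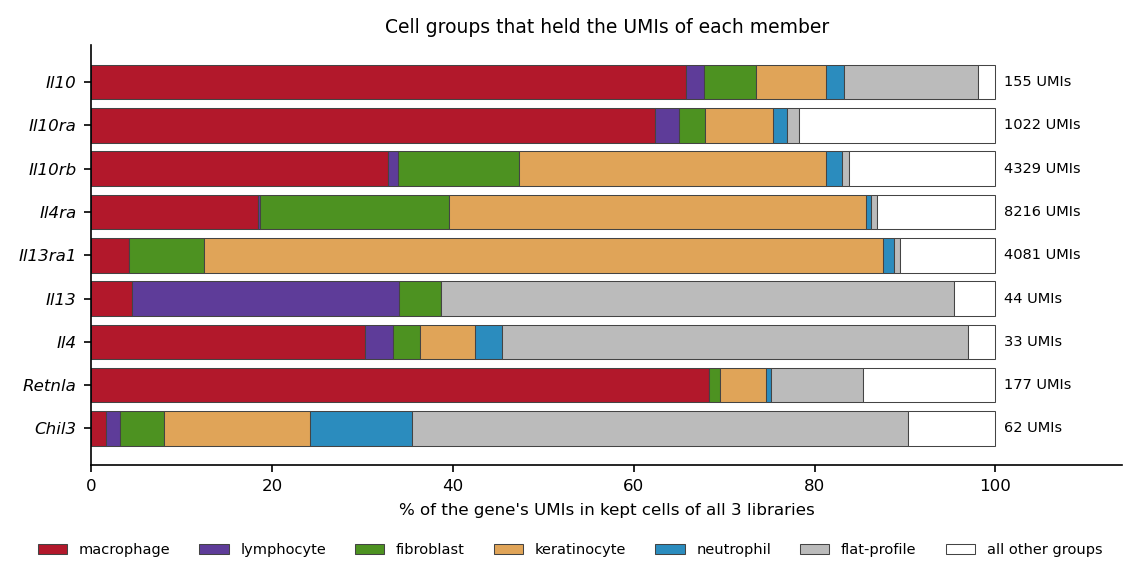
Stacked bars give the percent of each gene's UMIs held by each cell group, over the kept cells of all 3 libraries, with the number of UMIs at the right. Macrophages (red) held most of Il10, Il10ra and Retnla, keratinocytes (orange) most of Il13ra1, and flat-profile cells (grey) over 50% of the few UMIs of Il13, Il4 and Chil3.

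The interleukin 10 receptor chains differed in their spread over the skin. Il10ra, the ligand-binding chain, was at 214, 335 and 237 CPM in untreated, GelMA and AN-GelMA macrophages, at 171, 171 and 123 CPM in Langerhans cells, the antigen-presenting cells of the epidermis, and at 136, 102 and 75.4 CPM in lymphocytes. Fibroblasts had 9.30, 2.74 and 6.55 CPM and keratinocytes 4.55, 2.79 and 4.63 CPM. In each of the 3 libraries the white blood cell classes thus stood far above fibroblasts and keratinocytes. Macrophages held 62.3% of all Il10ra UMIs. They were not set apart from the few dendritic cells, of which 14 of 53 held a UMI (26.4%, interval 15.3 to 40.3%), against 20.3% of macrophages. Il10rb was found in all of these classes: it was at 512, 576 and 549 CPM in macrophages, at 209, 167 and 162 CPM in blood endothelial cells, and at 68.0, 69.8 and 77.8 CPM in keratinocytes, which, as the most numerous class, held 34.0% of its UMIs.

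Within keratinocytes, Il10rb was higher in the granular than in the basal layer. The cluster led by Flg and Casp14, genes of the granular layer, was at 277, 248 and 292 CPM, and the cluster led by Krt15 and Col17a1, genes of the basal layer, was at 50.5, 36.1 and 39.7 CPM. The Flg cluster was the higher in each of the 3 libraries, and it held 710 of the 1473 keratinocyte UMIs in 1020 cells.

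Most UMIs of the receptor chains for interleukins 4 and 13 lay outside the immune cells. These shares depend on class size, and 10563 of the kept cells were keratinocytes. Keratinocytes held 46.1% of the 8216 Il4ra UMIs, fibroblasts 20.9% and macrophages 18.4%. Per cell class, macrophages were at 451, 643 and 621 CPM, fibroblasts at 360, 203 and 452 CPM, blood endothelial cells at 311, 227 and 316 CPM, and keratinocytes at 185, 172 and 203 CPM. Macrophages were thus above fibroblasts in each library, and fibroblasts above endothelial cells in the untreated and AN-GelMA libraries but not in the GelMA library. For Il13ra1, keratinocytes held 75.1% of 4081 UMIs at 149, 146 and 157 CPM, and macrophages were at 60.6, 81.5 and 64.5 CPM. Neutrophils had 325, 305 and 449 CPM from 11, 13 and 25 UMIs.

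Lymphocytes had no Il13ra1 UMI in any library. Over the 3 libraries the 327 lymphocytes had 270372 UMIs, in which the fixed limit of 3 UMIs is worth 11.1 CPM. Il4ra had 25 UMIs there (92.5 CPM) and Il2rg, the common γ chain, 153 UMIs (566 CPM). Il2rg was at 86.9 CPM in macrophages, 14.3 CPM in fibroblasts and 10.9 CPM in keratinocytes. Lymphocytes thus had Il2rg and no counted Il13ra1, keratinocytes held most Il13ra1 UMIs with little Il2rg, and macrophages had UMIs of both partner chains.

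**Figure D2:**
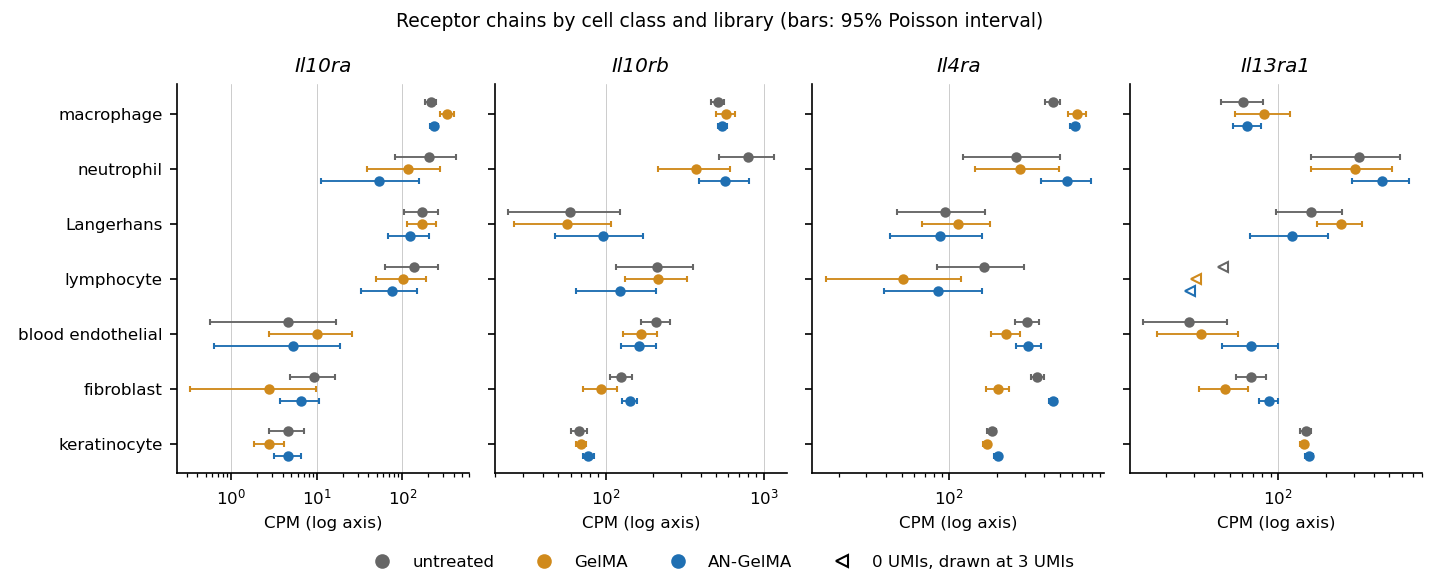
Points give CPM of the 4 receptor chains (log axes) in 7 cell classes for the untreated (grey), GelMA (orange) and AN-GelMA (blue) libraries, with Poisson 95% intervals; open triangles stand for 0 UMIs, drawn at the level of 3 UMIs. Il10ra separates the white blood cell classes from the other classes, Il13ra1 is at 0 in lymphocytes, and Il4ra in fibroblasts is lower in the GelMA library (203 CPM) than in the untreated (360) and AN-GelMA (452) libraries.

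In macrophages, 6 of the 9 genes had at least 30 UMIs over the 3 libraries and were compared between libraries; a ratio of 1.5 either way is called higher or lower, and its interval covers counting error only. Between AN-GelMA and GelMA, 1 of the 6 (Il10) was lower, and 29.2% of the 8811 genes with that minimum passed 1.5-fold either way. Between GelMA and untreated, 2 of the 6 (Il10 and Il10ra) were higher, against 31.6% of all genes. Between AN-GelMA and untreated, 1 of the 6 (Retnla) was higher, against 15%. Each of these shares was near or below that of all genes. The GelMA library takes part in 2 of the comparisons and the untreated library in 2, so the comparisons are not independent of each other.

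Il10 in macrophages was at 39.1 CPM in the untreated (29 UMIs, interval 26.2 to 56.1), 66.4 in the GelMA (22 UMIs, 41.6 to 101) and 32.9 in the AN-GelMA library (51 UMIs, 24.5 to 43.3). The GelMA library was the highest, and its interval overlaps those of both others. The log2 ratio of AN-GelMA to GelMA was -1.01 (exact 95% interval -1.76 to -0.22), and that of GelMA to untreated 0.77 (-0.10 to 1.62). In the thinned data the first ratio was 0.03 and the second 0.02, with 16, 5 and 25 cells holding a UMI. Of the Il10 UMIs in macrophages, 9 of 29, 2 of 22 and 5 of 51 lay in cells with a nose receptor UMI. Without those cells the ratios were -0.91 and 0.89.

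Il10ra, with more UMIs, was at 214 (159 UMIs, 182 to 250), 335 (111 UMIs, 276 to 403) and 237 CPM (367 UMIs, 213 to 262). The GelMA interval lies above both others, which overlap. Its log2 ratio was 0.65 (0.28 to 1.00) for GelMA to untreated and -0.50 (-0.81 to -0.18) for AN-GelMA to GelMA. Il10rb was at 512, 576 and 549 CPM with 380, 191 and 851 UMIs, and its ratios lay between -0.07 and 0.17, so these libraries did not differ beyond counting error.

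Il4ra was lowest in untreated macrophages: 451 CPM (335 UMIs, 404 to 502), against 643 in the GelMA (213 UMIs, 559 to 735) and 621 in the AN-GelMA library (963 UMIs, 583 to 662). The untreated interval lies below both others, which overlap. The log2 ratios to untreated were 0.51 (0.26 to 0.76) and 0.46 (0.28 to 0.65), under 1.5-fold. Il13ra1, on 45, 27 and 100 UMIs, was at 60.6, 81.5 and 64.5 CPM with overlapping intervals. Over the 8811 genes the median log2 ratio was 0.08 for GelMA to untreated and -0.01 for AN-GelMA to untreated.

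Retnla, the RELMα gene, was at 33.7 CPM in the untreated (25 UMIs, 21.8 to 49.7), 48.3 in the GelMA (16 UMIs, 27.6 to 78.4) and 51.6 in the AN-GelMA library (80 UMIs, 40.9 to 64.2). All 3 intervals overlap. The log2 ratio of AN-GelMA to untreated was 0.62 (-0.05 to 1.33). The UMIs came from 16, 6 and 39 cells with up to 8 in a cell; in the untreated library 11 of the 25 lay in cells with a nose receptor UMI, in the GelMA library 0 of 16 and in the AN-GelMA library 8 of 80. Without such cells that ratio was 1.14, and without cells holding a UMI of 6 keratinocyte, fibroblast or neutrophil genes it was 0.26. Without the barcodes found in more than 1 library it was 0.56, just under 1.5-fold. Chil3, the Ym1 gene, had 0, 0 and 1 UMI in macrophages. The level of 3 UMIs, the fixed limit given for a count of 0, is 4.04 and 9.05 CPM in the untreated and GelMA libraries. Its 7 neutrophil UMIs all came from 3 cells of the GelMA library.

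**Figure D3:**
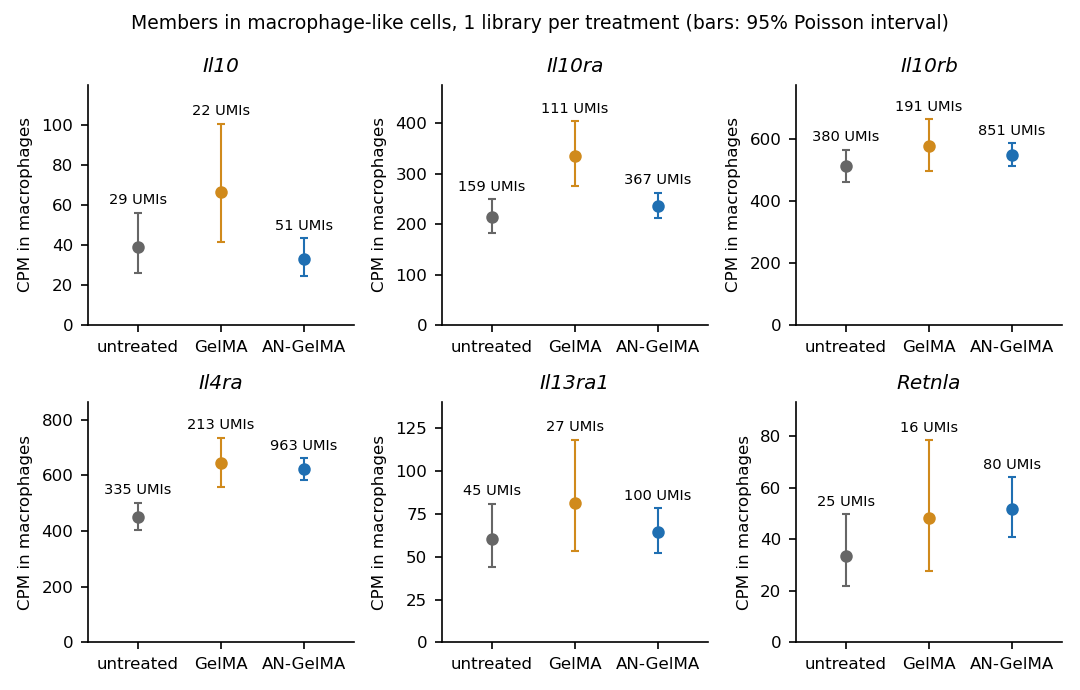
Each panel gives the CPM of 1 gene in macrophages of the untreated, GelMA and AN-GelMA libraries, on a linear axis from 0, with Poisson 95% intervals and the number of UMIs. Il10ra is highest in the GelMA library (335 CPM), Il4ra is lowest in the untreated library (451 CPM), and the intervals of Retnla overlap.

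The macrophages fell into clusters in unequal parts, so values were also taken within clusters. A cluster led by Mrc1, F13a1 and Cd163, markers of resident macrophages, made up 25.4% of untreated, 55.7% of GelMA and 29.0% of AN-GelMA macrophages (164, 209 and 434 cells). A cluster led by Mmp12, Rgs1 and Gpnmb, found in macrophages of wounds, made up 57.4%, 20.3% and 49.5% (370, 76 and 742 cells). Over the libraries, Il10 was at 85.3 CPM (65 UMIs) in the Mrc1 cluster and 18.7 CPM (26 UMIs) in the Mmp12 cluster. Within the Mrc1 cluster it was at 116, 91.0 and 71.1 CPM, so that the GelMA library was not the highest there: the log2 ratio of GelMA to untreated was -0.35 and that of AN-GelMA to GelMA -0.36. Il10ra within the Mrc1 cluster was at 280, 336 and 223 CPM, and within the Mmp12 cluster at 155, 114 and 208 CPM, where the GelMA value rests on 9 UMIs. Its GelMA-to-untreated ratio was 0.26 in the first cluster and -0.45 in the second. For Il10 the Mmp12 cluster gave 0.77 (-2.54 to 3.16), on 2 and 7 UMIs. The AN-GelMA-to-GelMA ratio of Il10ra was -0.59 (-1.08 to -0.10) within the Mrc1 cluster, past 1.5-fold and larger than in macrophages as a whole, and 0.87 (-0.09 to 2.02) within the Mmp12 cluster. In a further cluster, led by Cd72, H2-Aa and H2-Ab1 (80, 60 and 246 cells), Il10ra was at 442, 614 and 382 CPM. There its ratio was 0.47 (-0.30 to 1.24) for GelMA to untreated and -0.68 (-1.31 to -0.02) for AN-GelMA to GelMA. The part of the cluster shares in the values of the whole class was not tested.

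Il4ra behaved differently between the clusters. In the Mrc1 cluster it was at 835, 711 and 770 CPM with overlapping intervals. In the Mmp12 cluster it was at 340 (160 UMIs, 290 to 397), 684 (54 UMIs, 514 to 892) and 571 CPM (478 UMIs, 521 to 624). The untreated interval lies below both others. The log2 ratios to untreated in that cluster were 1.01 (0.53 to 1.46) for GelMA and 0.75 (0.48 to 1.01) for AN-GelMA. In the Cd72 cluster Il4ra was at 402, 572 and 639 CPM. Its log2 ratios to untreated there were 0.51 (-0.30 to 1.31) for GelMA and 0.67 (0.09 to 1.29) for AN-GelMA. The differences between the clusters in these ratios were not tested.

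Retnla UMIs lay in small groups of macrophages, though not only there. A cluster of 75 cells led by Fn1, Fcrls and class II genes held 36 of the 121 macrophage UMIs (450 CPM), from 9 of 23, 3 of 15 and 9 of 37 cells; Retnla is among the 10 genes that define this cluster, so its level there is a description. In the Mrc1 cluster it was at 48.7, 62.6 and 94.8 CPM on 8, 11 and 40 UMIs. In the Mmp12 cluster it had 1 UMI in the untreated, 0 in the GelMA and 18 in the AN-GelMA library, but the 18 lay in 6 of 742 cells. Outside macrophages, unnamed clusters led by genes of antigen-presenting cells held 12 Retnla UMIs in 4 of 279 cells, beside 121 UMIs in 61 of 2518 macrophages. Flat-profile cells held 18.

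**Figure D4:**
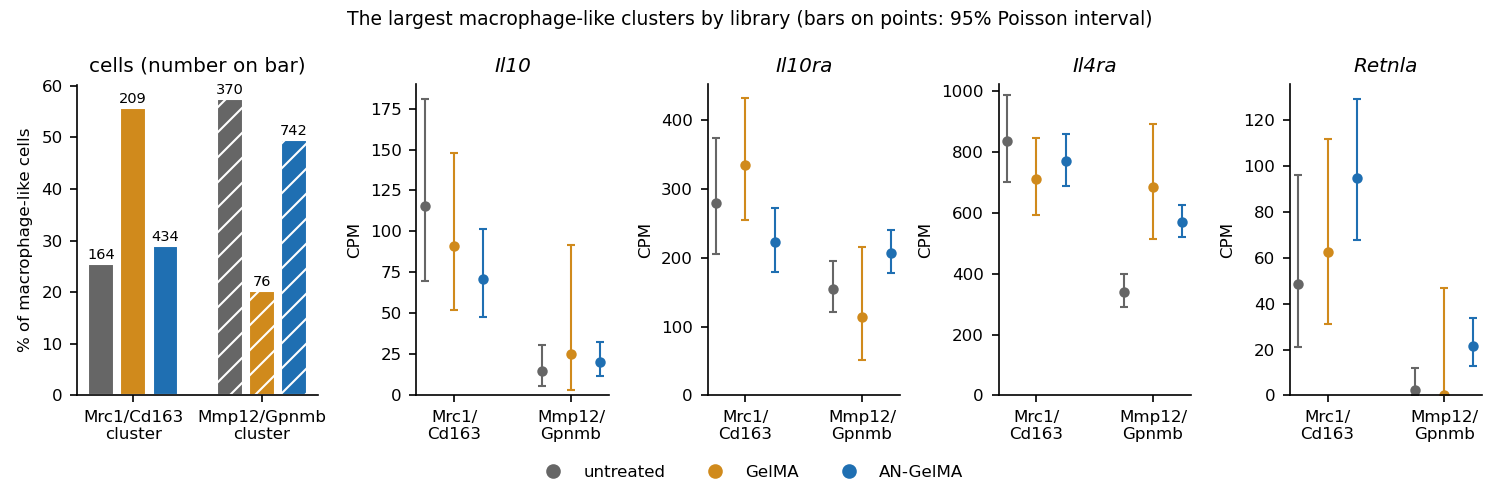
The first panel gives the share of macrophages in the Mrc1/Cd163 cluster (plain bars) and the Mmp12/Gpnmb cluster (hatched bars), with the number of cells, for the untreated (grey), GelMA (orange) and AN-GelMA (blue) libraries. The other panels give CPM with Poisson 95% intervals in these clusters: Il10 is higher in the Mrc1/Cd163 cluster in every library, and Il4ra in the Mmp12/Gpnmb cluster is lowest in the untreated library (340 CPM).

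Fibroblasts had lower receptor chain levels in the GelMA library than in the AN-GelMA library. Of the 4 genes with enough UMIs, all 4 were higher in AN-GelMA than in GelMA, where 28.6% of 10615 genes passed 1.5-fold either way. Between GelMA and untreated 2 were lower (Il10ra and Il4ra), with 28.6% of all genes past the ratio, and between AN-GelMA and untreated 0 of 4 passed it, with 10.7% of all genes. Il4ra was at 360 CPM (465 UMIs, 328 to 395), 203 CPM (148 UMIs, 171 to 238) and 452 CPM (1104 UMIs, 426 to 480), and none of the 3 intervals overlap. The log2 ratio was 1.16 (0.91 to 1.42) for AN-GelMA to GelMA and -0.83 (-1.11 to -0.56) for GelMA to untreated. Il10rb was at 126, 93.1 and 142 CPM and Il13ra1 at 68.2, 46.6 and 87.7 CPM, with ratios of AN-GelMA to GelMA of 0.61 (0.23 to 1.01) and 0.91 (0.39 to 1.48). Il10ra rests on 12, 2 and 16 UMIs, and its interval for AN-GelMA to GelMA runs from -0.83 to 4.42. With each cell thinned to 800 UMIs the Il10ra ratio of AN-GelMA to GelMA was -0.52, so this call of the 4 did not keep its direction. The hair-forming genes summed to 102, 1026 and 17.2 CPM in fibroblasts and the 9 fibroblast markers to 30963, 23667 and 30775 CPM; their part in these ratios was not tested.

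The low Il4ra of GelMA fibroblasts was found within the larger clusters. In the largest, led by Col3a1, Fbn1 and Pi16, it was at 338, 167 and 463 CPM, with a log2 ratio of AN-GelMA to GelMA of 1.47 (1.09 to 1.88). In the cluster led by Col12a1, Postn and Tnn it was at 266, 196 and 356 CPM, with a ratio of 0.86 (0.43 to 1.32). The cluster led by Nos2 and Saa3, genes of inflamed fibroblasts, ran the other way: it was at 641, 1090 and 607 CPM, and its ratio was -0.85 (-1.36 to -0.28). Only 19 of its cells came from the GelMA library, of which 10 held the 33 UMIs. That cluster had the highest Il4ra of the fibroblasts in each library, and it made up 17.6% of untreated, 2.84% of GelMA and 18.6% of AN-GelMA fibroblasts.

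Keratinocytes were the class with the most UMIs. Of 4 measured genes, 1 was higher in AN-GelMA than in GelMA (Il10ra, on 32 and 26 UMIs), with 24.8% of 12417 genes past 1.5-fold. Il10ra was also the 1 gene that was lower in GelMA than in untreated, with 22.9% of all genes, and 0 of 4 passed between AN-GelMA and untreated, with 9.78% of all genes. Thinned to 800 UMIs, the Il10ra ratio of AN-GelMA to GelMA was -0.10, the other direction. The largest ratio of the other 3 genes was that of Il4ra in AN-GelMA to GelMA, 0.23 (0.13 to 0.34). The make-up of the class differed: a cluster led by Krt75 and Tbx1, genes of hair follicles, held 34.3% of GelMA keratinocytes and 7.68% and 3.07% of the untreated and AN-GelMA ones. Within it Il4ra was at 28.0 CPM (5 UMIs), 149 CPM (329 UMIs) and 48.3 CPM (8 UMIs), highest in the GelMA library. In a cluster led by Krt79 and Defb6 it was at 91.8, 135 and 87.7 CPM, again highest in the GelMA library, while over the whole class the AN-GelMA library was the highest.

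Between keratinocyte clusters the same gene differed far more. Il4ra was at 614, 744 and 833 CPM in the cluster led by Mmp13, Mmp9 and Krt6a, genes of keratinocytes that move over a wound, and at 189, 157 and 163 CPM in the cluster led by Krt15 and Col17a1. In each library the Mmp13 cluster was the highest of the 7 that are plotted, on 87, 133 and 184 UMIs in 50, 62 and 77 cells. The UMIs were spread over 30, 39 and 48 of these cells, with at most 15, 15 and 21 in 1 cell. Il13ra1 was at 190, 269 and 236 CPM in the Mmp13 cluster and at 247, 249 and 229 CPM in the cluster led by Krt1, Skint1 and Krt10, so it did not single out the Mmp13 cluster.

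**Figure D5:**
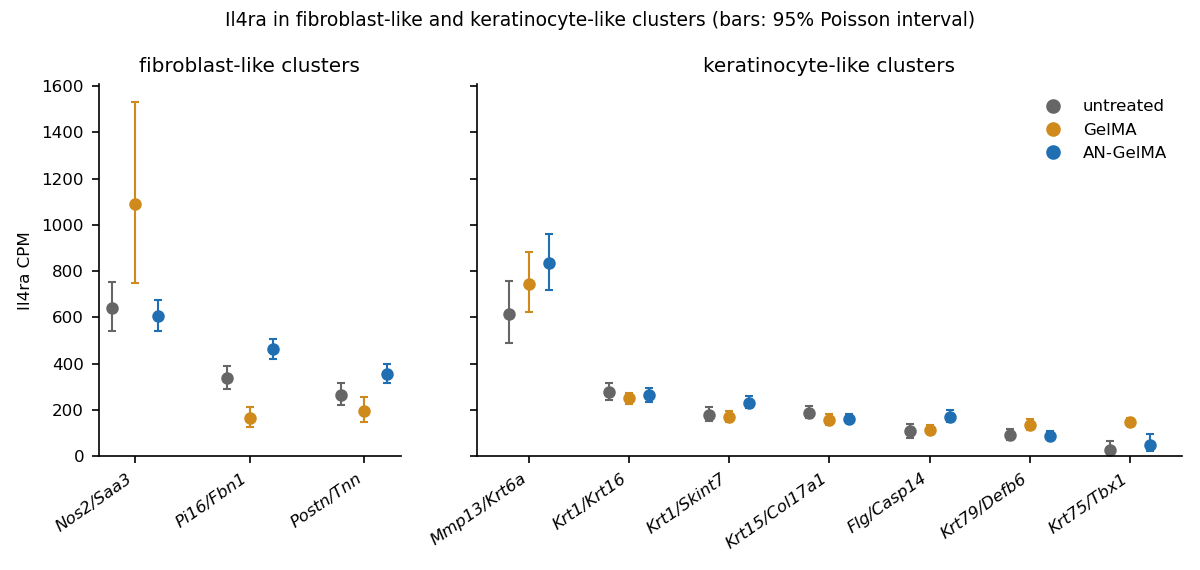
Points give Il4ra CPM with Poisson 95% intervals in 3 fibroblast and 7 keratinocyte clusters, each named by 2 leading genes, for the untreated (grey), GelMA (orange) and AN-GelMA (blue) libraries. The Nos2/Saa3 fibroblasts and the Mmp13/Krt6a keratinocytes are the highest of their class in each library, and GelMA is the lowest library in the Pi16/Fbn1 (167 CPM) and Postn/Tnn (196 CPM) fibroblasts.

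In blood endothelial cells Il13ra1 was the gene past 1.5-fold. It was at 27.6 CPM (12 UMIs), 32.8 CPM (13 UMIs) and 68.0 CPM (26 UMIs), highest in the AN-GelMA library, whose interval of 44.4 to 99.6 overlaps both others. The log2 ratio was 1.05 (0.04 to 2.13) to GelMA and 1.30 (0.26 to 2.42) to untreated. It was 1 of 3 measured genes in each of these comparisons, with 29.7% and 19.3% of all genes past the ratio, and between GelMA and untreated 0 of 3 passed it, with 28.4% of all genes. In lymphocytes Il10rb alone had enough UMIs to be compared, at 212, 214 and 122 CPM on 14, 21 and 13 UMIs with overlapping intervals; its log2 ratio of AN-GelMA was -0.80 (-1.92 to 0.26) to GelMA and -0.79 (-2.00 to 0.41) to untreated. Thinned to 800 UMIs, these ratios were 0.14 and 0.95, the other direction, with 5 of 40 AN-GelMA, 6 of 53 GelMA and 2 of 31 untreated lymphocytes holding a UMI.

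The wider pathway was followed through 65 other genes in macrophages, of which 39 had at least 30 UMIs. Between AN-GelMA and GelMA 7 were higher and 10 lower, with a median log2 ratio of -0.05 against -0.08 over all genes, of which 11.7% were higher and 17.5% lower. Between GelMA and untreated 13 were higher and 8 lower (median 0.16 against 0.08), with 18.2% of all genes higher and 13.5% lower. Between AN-GelMA and untreated 6 were higher and 2 lower (0.11 against -0.01), with 7.14% and 7.83% of all genes. Of the 8 kinases and transcription factors, 0 passed 1.5-fold between AN-GelMA and untreated. Gata3 was the 1 that was higher in GelMA than in untreated, at 1.66 (0.91 to 2.43), on 38 and 27 UMIs. It was also the 1 that was lower in AN-GelMA than in GelMA, at -1.54 (-2.15 to -0.92). The hair-forming genes were likewise highest in GelMA macrophages (125, 875 and 18.7 CPM), and their part in the Gata3 ratios was not tested. Stat6 was at 315, 317 and 306 CPM and Stat3 at 287, 254 and 326 CPM. Among 13 measured targets of interleukins 4 and 13, 7 were higher and 4 lower in GelMA than in untreated. Of these 13, 3 were higher and 6 lower in AN-GelMA than in GelMA, and 1 was higher and 2 lower in AN-GelMA than in untreated. Mrc1 and Clec10a, both higher in GelMA than in untreated, are among the 10 leading genes of the Mrc1 cluster. Arg1 and Cd36, both lower there, are among those of the Mmp12 cluster. Of the 7 that were higher in GelMA than in untreated, the intervals of Cdh1, Myc and Postn include a log2 ratio of 0, and Alox15 rests on 9 and 3 UMIs. Of the 4 that were lower, that of Pparg includes 0. In macrophages the keratinocyte markers summed to 478, 987 and 530 CPM and the fibroblast markers to 742, 984 and 530 CPM. The part of these markers and of the cluster shares in these counts was not tested. Among 9 measured targets of interleukin 10, 4 were higher and 0 lower in AN-GelMA than in untreated, 2 were higher and 3 lower in GelMA than in untreated, and 3 were higher and 1 lower in AN-GelMA than in GelMA.

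The highest and lowest ratios are given among genes with at least 50 UMIs in both libraries together; below that limit Alox15, Il1rl1 and Postn, with 3 to 23 UMIs in a library, had ratios beyond some of them. Cd163, the haemoglobin scavenger receptor, Mgl2, a lectin of alternatively activated macrophages, and Tslp, an epithelial cytokine, had the highest GelMA-to-untreated ratios, 2.28 (2.04 to 2.52), 1.75 (1.05 to 2.47) and 1.8 (0.94 to 2.68). Cd36, a lipid scavenger receptor, Il1rn, the interleukin 1 receptor antagonist, and Arg1, arginase, had the lowest, -1.76, -1.74 and -1.39. Arg1 and Cd36 are among the 10 leading genes of the Mmp12 cluster and Cd163 among those of the Mrc1 cluster. Within the Mmp12 cluster the GelMA-to-untreated ratio was 0.01 for Arg1, -0.69 for Cd36 and -0.60 (-1.55 to 0.23) for Il1rn. Within the Mrc1 cluster this ratio was 0.64 (-0.25 to 1.57) for Tslp and 2.32 (1.04 to 3.86) for Mgl2. That of Cd163 was 1.12 (0.87 to 1.38) within the Mrc1 cluster and 3.34 (2.43 to 4.30) within the Mmp12 cluster, on 29 and 17 UMIs, so Cd163 was higher in GelMA in both. Of these 6, all but Arg1, together with Nfil3, a repressor induced by interleukin 10, were at the ends of the AN-GelMA-to-GelMA list, from -1.89 for Tslp to 1.74 for Nfil3. In AN-GelMA against untreated the lowest were Egr2, a transcription factor induced by STAT6, at -0.77, Cd36 at -0.46 and Arg1 at -0.39, and the highest were Nfil3 at 0.70, Cd163 at 0.73 and Socs3 at 1.13.

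Socs3, the feedback inhibitor that STAT3 induces, had the highest ratio of AN-GelMA to untreated among the wider pathway genes with at least 50 UMIs in both libraries together. It was at 148 CPM (110 UMIs), 172 CPM (57 UMIs) and 325 CPM (503 UMIs) in macrophages. The AN-GelMA library was the highest, and the log2 ratio to untreated was 1.13 (0.83 to 1.44). Within the Mrc1 cluster this ratio was 1.47 (0.66 to 2.40), and within the Mmp12 cluster 1.17 (0.80 to 1.56). GelMA differed by cluster, with a ratio to untreated of -0.74 (-2.13 to 0.57) in the first, on 9 and 14 UMIs, and 1.05 (0.34 to 1.71) in the second. Socs3 is also known to respond to other cytokines that act through STAT3; which of them goes with its level was not tested.

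Likeness of pattern was measured as Pearson's r of log2(CPM + 10) over 30 points, 10 classes in 3 libraries that share depth and background within a library, among 12143 genes. The 3 genes most like each member were Pld4 (0.92), Ccl12 and Cd209f for Il10, Myo1f (0.98), Nckap1l and Rasgrp4 for Il10ra, and Samhd1 (0.92), Arhgap17 and Ddx60 for Il10rb. For Il4ra they were Gda (0.84), Dram1 and Pxk, for Il13ra1 Sash1 (0.79), Gsn and Ctnnd1, and for Retnla Sirpb1a (0.97), Clec4b1 and Fcgr1. The closest patterns were those of Il10ra and Retnla. Macrophages held 121 of the 177 Retnla UMIs, so its r rests mostly on the macrophage points. The least close were those of Il4ra and Il13ra1, which were counted in keratinocytes, fibroblasts and myeloid cells at unlike levels.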

How the data were processed

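Single-cell RNA profiles of fixed wound skin were made with a probe-based assay (10x Genomics Flex). Per the file headers, the counts in the deposited matrices, UMIs for each gene and barcode, came from Cell Ranger 10.0.0; the submitters' processing notes name the mouse builds GRCm39 and mm39. Kept cells had at least 400 UMIs, at least 250 genes and no more than 10% of UMIs from mitochondrial genes. Scrublet called 0 doublets, so the 5% of cells with the highest scores in each library were removed, which left 5721, 10687 and 9094 cells. With Scanpy 1.11.5 (Python 3.11.15), 2000 variable genes, 30 principal components and 15 neighbours gave Leiden clusters at resolution 1, with sub-clusters at 0.5. They were named from 19 marker lists; the naming rule was adjusted after the cluster tables were seen. UMIs were summed by class and library and scaled to CPM.

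With 1 library a group there is no test. Levels have exact Poisson intervals, shares exact binomial (Clopper-Pearson) intervals and ratios exact conditional binomial intervals (SciPy 1.17.1), all at 95% and for counting error only; they were checked on simulated data. Ratios were read for genes with at least 30 UMIs over the 3 libraries. For 0 UMIs the level of 3 UMIs is given, a fixed limit that lies below the upper end of the exact interval. Levels were not compared between genes, because probe numbers differ. All 9 members are named; of the wider pathway, for each comparison in macrophages, the 3 genes with the highest and the 3 with the lowest ratio among those with at least 50 UMIs in both libraries together, and any that a role is described by. The members and gene lists were chosen with earlier results of these data known. Alternatives numbered 18, of which 15 were planned. RefSeq promoters come from another build than the files and were used for their letters only.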

Additional observations from a re-analysis of the deposited data

Results flagged for a closer look

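Between AN-GelMA and GelMA, the log2 ratio of Il10rb was 0.61 in fibroblasts and -0.80 in lymphocytes, past 1.5-fold in opposite directions; the difference was not tested, and the lymphocyte value rests on 13 and 21 UMIs and was 0.14 with cells thinned to 800 UMIs, in the direction of fibroblasts. Between GelMA and untreated, Il10ra was 0.65 in macrophages, -1.76 in fibroblasts (2 and 12 UMIs) and -0.71 in keratinocytes (26 and 19 UMIs), again in opposite directions and not tested. The flat-profile clusters, which enter no comparison, held 25 UMIs of Il13, 17 of Il4 and 34 of Chil3, in 1.11% of the kept cells.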

How the results depend on the processing

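No paired analysis was possible because only 1 library stands for each condition. Over 18 alternatives, 634 of 697 recomputed values moved by less than counting error, 55 moved further and 8 changed direction. The settings differed in this. With 10% of cells removed as doublets, 62 of 62 values moved by less than counting error. It was 46 of 62 when thinned and 47 of 62 with each cell classed by its own markers. It was 11 of 18 within the Mrc1 cluster and 2 of 8 with at least 1000 UMIs per cell. With each cell thinned to 800 UMIs, the log2 ratio of AN-GelMA to GelMA was 0.028 for Il10 in macrophages, 0.14 for Il10rb in lymphocytes, -0.52 for Il10ra in fibroblasts and -0.10 for Il10ra in keratinocytes, and that of AN-GelMA to untreated was 0.95 for Il10rb in lymphocytes. For GelMA to untreated in macrophages, Il10 was -0.35 within the Mrc1 cluster and -0.11 with clusters weighted equally, and Il10ra was -0.45 within the Mmp12 cluster. The cause was not tested. Of the macrophage members past 1.5-fold, the count for AN-GelMA to GelMA (1) was 2 with at least 1000 UMIs per cell, thinned, as a mean over cells, with equal cluster weights or with no minimum of UMIs, and 3 within the Mrc1 cluster. For GelMA to untreated (2) it was 1 when thinned or with equal weights and 0 within the Mrc1 cluster. For AN-GelMA to untreated (1) it was 0 when thinned, without cells holding UMIs of 6 keratinocyte, fibroblast or neutrophil genes, or without barcodes found in more than 1 library, 2 within the Mmp12 cluster, and 3 within the Mrc1 cluster or with no minimum. Chosen after seeing the data were leaving out shared barcodes, leaving out cells with a nose receptor UMI, and the largest fibroblast cluster alone. Lymphocytes with at least 1000 UMIs per cell were not run, since a library then held under 20 cells. Depth limits Il4, Il13 and Chil3 most.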
